A study of Homo sapiens with 4 samples.

Results

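The AP-1 family was examined in ES2 cells, an established human ovarian cancer cell line, that had been treated with vehicle or with liquiritigenin (Liq) for 24 h. Liq is a plant flavanone that the study uses as an agonist of estrogen receptor beta (ERβ). The members were chosen by gene symbol and were the 4 FOS genes FOS, FOSB, FOSL1 and FOSL2, the 3 JUN genes JUN, JUNB and JUND, and the related genes ATF3 and BATF3. All 9 were among the 23228 genes of the count tables, and all 9 passed the filter on low counts that left 13546 genes for testing. There were 2 samples of each group, and both groups were grown in phenol red-free medium with charcoal-treated serum. The labels do not give the concentration of Liq, which the study states in its methods.

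AP-1 is a dimeric transcription factor that binds DNA through basic leucine zippers (bZIP). FOS proteins do not pair with each other and need a JUN partner, whereas JUN proteins also pair among themselves. FOS, FOSB and JUNB are early response genes, transcribed within minutes of growth factor or stress signals and driven through MAP kinases. FOSL1 and FOSL2 encode the Fra proteins, which are induced later and persist longer, and FOSL1 is itself a known target of AP-1 in tumor cells with active ERK signaling. ATF3 is a stress-induced bZIP factor, and BATF3 is best known from dendritic cells.

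The samples held 34573053 to 48933893 reads on genes. Levels are given as CPM, the read count scaled to library size by edgeR, and a floor of 3 reads corresponded to 0.06 to 0.084 CPM. The epithelial keratin genes KRT7, KRT8 and KRT18 had at least 871 reads in every sample, but CDH1 had 0 and EPCAM 1 to 3 reads. Of the Müllerian markers, PAX8 had 12 to 49 and WT1 98 to 181 reads, and MSLN had 0. The summed level of 6 such markers, 2 of which had 10 or more reads in every sample, was 5.3 to 6.17 CPM in vehicle and 3.29 to 3.53 CPM in Liq, and the part of this difference in the AP-1 results was not tested. The mesenchymal gene VIM had 230451 to 312656 reads. ESR2, which encodes ERβ, had 4 to 14 reads and was not tested. The other estrogen receptor genes examined, ESR1 and GPER, had 17 to 34 and 19 to 26 reads. Neither passed the test (edgeR adjusted p = 0.5539 and 0.7319). Of the leukocyte markers, PTPRC had 0 or 1 read and CD3E had 0, but CD68 had 2538 to 3331 reads. Of the endothelial markers, CDH5 had 1712 to 2239 and PECAM1 2 to 10 reads, and KDR was lower in Liq (log2 fold change -0.79, edgeR adjusted p = 0.006026). The summed level of the 3 endothelial markers was 53.1 to 55.6 CPM in vehicle and 46.0 to 49.5 CPM in Liq, whose part in the AP-1 results was not tested either. The labels do not say that the samples came from separate cultures, so the p-values measure the spread between these samples, which may be technical.

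FOSL1 and JUN were the main AP-1 transcripts of ES2 cells. On the scale of CPM per kilobase of annotated exons, FOSL1 was at 331.9 and 317.5 in vehicle and at 320.5 and 277.5 in Liq. JUN, the founding member of its family, was at 105.7 and 103.4 in vehicle and at 106.6 and 97.63 in Liq. FOSL1 therefore exceeded JUN in each of the 4 samples, and in CPM it lay above 98.5% of tested genes. FOSL2 followed at 23.13 ± 0.08 CPM per kilobase in vehicle, JUNB at 17.54 ± 0.10 and JUND at 10.72 ± 0.82 (SD, n = 2). FOSB and FOS, the classical early response members, were far lower, at 1.268 ± 0.078 and 1.069 ± 0.065 CPM per kilobase in vehicle (SD, n = 2). ATF3 was at 0.69 ± 0.08 and BATF3 at 0.194 ± 0.020 CPM per kilobase in vehicle (SD, n = 2). Each step in this order was larger than the 2 SDs of its neighbours, and the order was the same with the longest annotated transcript as the length. FOSB and FOS were the closest pair. In Liq the order of the means changed at 2 places (SD, n = 2). JUNB (9.70 ± 1.66) was below JUND (11.1 ± 1.66), and ATF3 (0.84 ± 0.04) was above FOSB (0.66 ± 0.01) and FOS (0.62 ± 0.10). The step between JUND and JUNB was smaller than the SD of either gene, though JUNB was the lower in each Liq sample. FOS was above FOSB in Liq replicate 1 (0.6885 against 0.6533) and below it in Liq replicate 2 (0.5503 against 0.671).

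**Figure D1:**
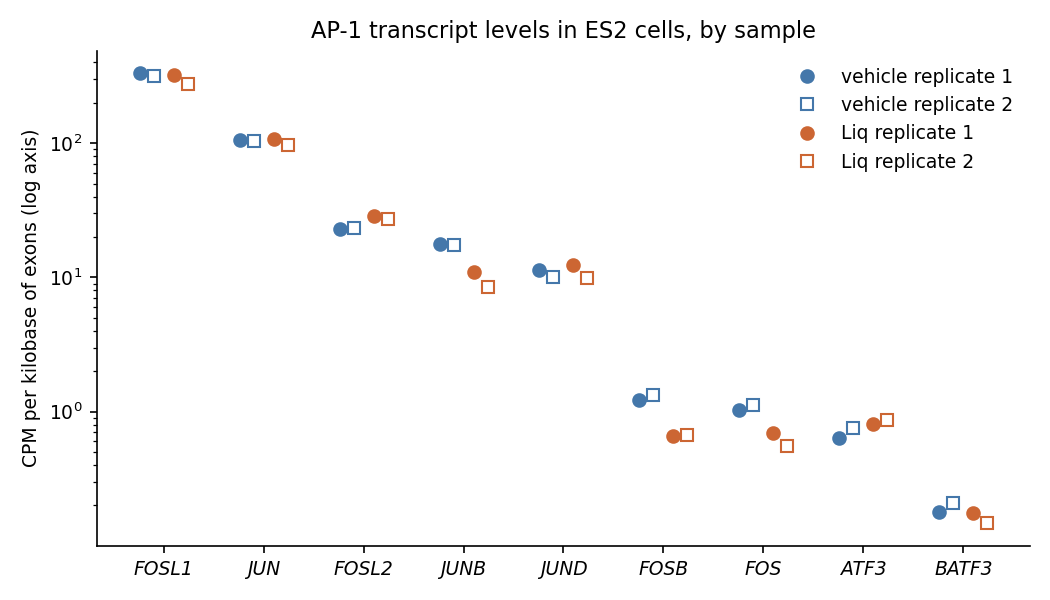
Level of each AP-1 gene in CPM per kilobase of annotated exons (log axis) in each of the 4 ES2 samples, ordered by the mean in vehicle. Blue points are vehicle and orange points are Liq samples, with circles for replicate 1 and open squares for replicate 2. FOSL1 is the highest and BATF3 the lowest gene in every sample. The orange points lie below the blue ones for JUNB, FOSB and FOS, and also for BATF3, which had 16 to 20 reads per sample.

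FOS, FOSB and JUNB fell with Liq, each to between 0.523 and 0.573 of its vehicle level. The question of the comparison was which genes Liq changes in ovarian cancer cells, and the rule for a call asked for a 1.5-fold difference or more together with a Benjamini-Hochberg adjusted p-value under 0.05 (edgeR's quasi-likelihood test, adjusted over all tested genes). By this rule 3 of the 9 members were lower and 0 were higher in Liq, beside 2.16% of all tested genes called lower, 4.29% called higher and 6.45% called in either direction. DESeq2 also called 3 lower and 0 higher, and at an unadjusted p-value under 0.05 by edgeR, without a fold threshold, 1 member, FOSL2, was higher and 3 were lower, beside 18.8% and 17.3% of all tested genes. With 2 samples against 2, exact permutation of a gene's values cannot give less than p = 0.3333, so the calls depend on edgeR's pooling of the variance over many genes.

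JUNB encodes a JUN protein that activates transcription less strongly than JUN at many sites. It had 1325 and 1197 reads in vehicle and 708 and 783 in Liq, which was 32.23 and 31.97 CPM against 19.91 and 15.6 CPM. Both Liq samples lay below both vehicle samples, with the wider gap between replicates in the Liq group. The log2 fold change was -0.86 (SE 0.105, edgeR adjusted p = 7.717e-07), and in the fits without 1 sample it ranged from -1.04 to -0.69. The JUNB gene (chromosome 19 from 12902300 to 12904129, plus strand, GRCh37) shares 259 bases of exon with HOOK2 on the opposite strand, and whether the authors counted by strand is not stated. HOOK2 had a log2 fold change of 0.34 (SE 0.11, edgeR adjusted p = 0.0247), opposite in sign to JUNB.

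FOSB encodes a FOS protein that is also made in a shortened form, which these gene counts cannot separate. It had 277 and 275 reads in vehicle and 129 and 187 in Liq, or 6.737 and 7.346 CPM against 3.628 and 3.726 CPM. The replicates of each group were close and the groups were far apart. The log2 fold change was -0.93 (SE 0.138, edgeR adjusted p = 1.626e-05), and only 1.12% of tested genes had a lower one. FOSB lies on chromosome 19 from 45971253 to 45978437 (plus strand, GRCh37). It overlaps ERCC1 on the other strand without sharing exon bases.

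FOS, the cellular counterpart of the viral oncogene v-fos, had 134 and 133 reads in vehicle and 78 and 88 in Liq. This was 3.259 and 3.553 CPM against 2.193 and 1.753 CPM, again with both Liq samples below both vehicle samples. The log2 fold change was -0.80 (SE 0.183, edgeR adjusted p = 0.002073), with a range of -0.96 to -0.63 in the fits without 1 sample. At this depth FOS was among the less precisely measured members, and its 95% interval ran from -1.18 to -0.43. FOS lies on chromosome 14 from 75745529 to 75748933 (plus strand, GRCh37), 145486 bases before JDP2, which encodes an AP-1 repressor and had 2 to 6 reads per sample, too few to be tested.

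FOSL2 went the other way by a small amount. It had 165.2 and 166.0 CPM in vehicle and 206.2 and 194.8 CPM in Liq, so that both Liq samples lay above both vehicle samples. The log2 fold change was 0.28 (SE 0.070, edgeR adjusted p = 0.005147), a 1.21-fold difference that stayed under the fold threshold. With no fold threshold, 12.6% of all tested genes were higher and 11.3% lower at the adjusted p-value. FOSL2 no longer passed the adjusted threshold without vehicle replicate 1 (edgeR adjusted p = 0.1105) or without vehicle replicate 2 (edgeR adjusted p = 0.08923), at log2 fold changes of 0.27 and 0.28. FOSL2 lies on chromosome 2 from 28615315 to 28640184 (plus strand, GRCh37).

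The promoter windows of these genes are shown because the members split into those that fell, 1 that rose and those that did not pass the test. RefSeq windows of 300 bases, 250 before and 50 after the start of transcription, were at hand for 7 of the 9 members. Not matched were FOSL1 and BATF3. Each window printed here matched GRCh37 at 1 place. Capitals mark matches on either strand to the AP-1 site TGAGTCA, the cyclic AMP response element (CRE) TGACGTCA, the variant TGACATCA known from the JUN promoter, the CArG box bound by SRF, or the CRE core TGACGT, which was added after the windows had been read and which every CRE contains.
FOS, chr14:75745281-75745580, plus strand, fell: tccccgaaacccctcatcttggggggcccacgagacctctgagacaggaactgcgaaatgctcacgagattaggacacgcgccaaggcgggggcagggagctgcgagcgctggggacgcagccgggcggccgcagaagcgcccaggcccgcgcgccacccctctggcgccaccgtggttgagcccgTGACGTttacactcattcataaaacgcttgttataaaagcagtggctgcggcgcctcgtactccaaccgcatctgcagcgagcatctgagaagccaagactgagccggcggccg
FOSB, chr19:45971004-45971303, plus strand, fell: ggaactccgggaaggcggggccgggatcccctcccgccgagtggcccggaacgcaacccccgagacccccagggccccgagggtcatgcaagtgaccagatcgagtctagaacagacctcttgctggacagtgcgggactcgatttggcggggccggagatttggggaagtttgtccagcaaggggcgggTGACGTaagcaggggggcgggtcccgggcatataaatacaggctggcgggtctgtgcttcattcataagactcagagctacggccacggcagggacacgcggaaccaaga
JUNB, chr19:12902050-12902349, plus strand, fell: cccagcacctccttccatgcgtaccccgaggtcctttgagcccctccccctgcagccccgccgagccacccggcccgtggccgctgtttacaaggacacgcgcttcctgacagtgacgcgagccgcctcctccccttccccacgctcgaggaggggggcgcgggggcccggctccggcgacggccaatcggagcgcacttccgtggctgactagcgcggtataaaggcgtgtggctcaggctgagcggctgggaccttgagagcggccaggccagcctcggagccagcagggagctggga
FOSL2, chr2:28615475-28615774, plus strand, rose: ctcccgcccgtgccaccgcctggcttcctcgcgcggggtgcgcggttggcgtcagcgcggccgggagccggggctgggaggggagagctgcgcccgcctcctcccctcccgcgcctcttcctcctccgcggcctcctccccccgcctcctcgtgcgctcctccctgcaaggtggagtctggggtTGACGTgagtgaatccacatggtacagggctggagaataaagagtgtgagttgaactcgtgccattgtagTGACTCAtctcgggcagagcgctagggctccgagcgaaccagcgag
JUN, chr1:59249670-59249969, minus strand, not called: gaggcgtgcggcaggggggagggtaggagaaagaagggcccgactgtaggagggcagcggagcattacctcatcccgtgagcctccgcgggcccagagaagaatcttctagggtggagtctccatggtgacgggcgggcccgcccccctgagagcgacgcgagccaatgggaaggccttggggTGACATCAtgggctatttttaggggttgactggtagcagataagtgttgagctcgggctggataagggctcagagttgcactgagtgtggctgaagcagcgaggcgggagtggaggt

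A CRE core began 64 bases before the start of FOS, 60 before that of FOSB and 66 before that of FOSL2, and it occurs in 7.98% of the 35116 windows of the genome. FOSL2 was the member with an AP-1 site, from base 5 after the start, a motif present in 4.95% of all windows. JUN had the TGACATCA variant 67 bases before its start and the first ATF3 window had it 123 bases before its start, against 2.61% of all windows. JUND held a complete CRE 200 bases before its start (1.85% of all windows) and a further CRE core at 87 bases. The JUNB window held none of these letters. No member window had a CArG box, which 1.29% of all windows hold. The windows reach only 250 bases before the start, so a CArG box farther upstream would not be seen. FOS and FOSB, which fell, and FOSL2, which rose, thus shared the CRE core at nearly the same distance from the start that RefSeq gives. For FOSL2 that start lies inside the gene as placed above. Its window begins at base 28615475, after the first annotated base at 28615315, so the FOSL2 distances hold for the RefSeq start only. A match of letters is a description of the window and says nothing of binding.

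FOSL1 and JUN, the most abundant members, did not pass the test. FOSL1 had 25752 and 22429 reads in vehicle and 21504 and 26283 in Liq, or 626.3 and 599.1 CPM against 604.7 and 523.7 CPM, so the groups overlapped. Its log2 fold change was -0.12 (SE 0.068, edgeR adjusted p = 0.2124), with a 95% interval of -0.26 to 0.02. For FOSL1 the log2 fold change was -0.23 without Liq replicate 1 (edgeR adjusted p = 0.01338) and -0.02 without Liq replicate 2 (edgeR adjusted p = 0.878), both short of a 1.5-fold difference. JUN had 383.0 and 374.7 CPM in vehicle and 386.4 and 353.8 CPM in Liq. The log2 fold change of JUN was -0.03 (SE 0.067, edgeR adjusted p = 0.7559, 95% interval -0.17 to 0.10), and its sign turned with offsets fitted along the expression level (0.05) and without Liq replicate 2. Changes of 1.5-fold lie outside the intervals of both genes. FOSL1 lies on chromosome 11 from 65659520 to 65668044 and JUN on chromosome 1 from 59242517 to 59249720, both on the minus strand (GRCh37).

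JUND, which is expressed more constantly than its relatives in most cells, had 21.79 and 19.55 CPM in vehicle and 23.71 and 19.19 CPM in Liq. The Liq samples lay on both sides of the vehicle samples, and the log2 fold change was 0.05 (95% interval -0.17 to 0.26, edgeR adjusted p = 0.7929), with a sign that turned without vehicle replicate 2 or Liq replicate 1. ATF3 had 2.554 and 2.992 CPM in vehicle and 3.234 and 3.487 CPM in Liq. Both Liq samples were higher, but the difference did not pass the test (log2 fold change 0.28, 95% interval -0.06 to 0.63, edgeR adjusted p = 0.2322). BATF3 had 19 and 20 reads in vehicle and 16 and 19 in Liq, and its log2 fold change was -0.28 (edgeR adjusted p = 0.6349). The 95% interval of -1.05 to 0.49 was the widest of the family and includes a 1.5-fold fall, which these 16 to 20 reads per sample cannot resolve. ATF3 and BATF3 lie 65640 bases apart on chromosome 1. In all, the Liq and vehicle samples did not overlap for 6 members, 4 lower and 2 higher, beside 30.2% and 31.5% of all tested genes, or 61.7% in either direction.

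**Figure D2:**
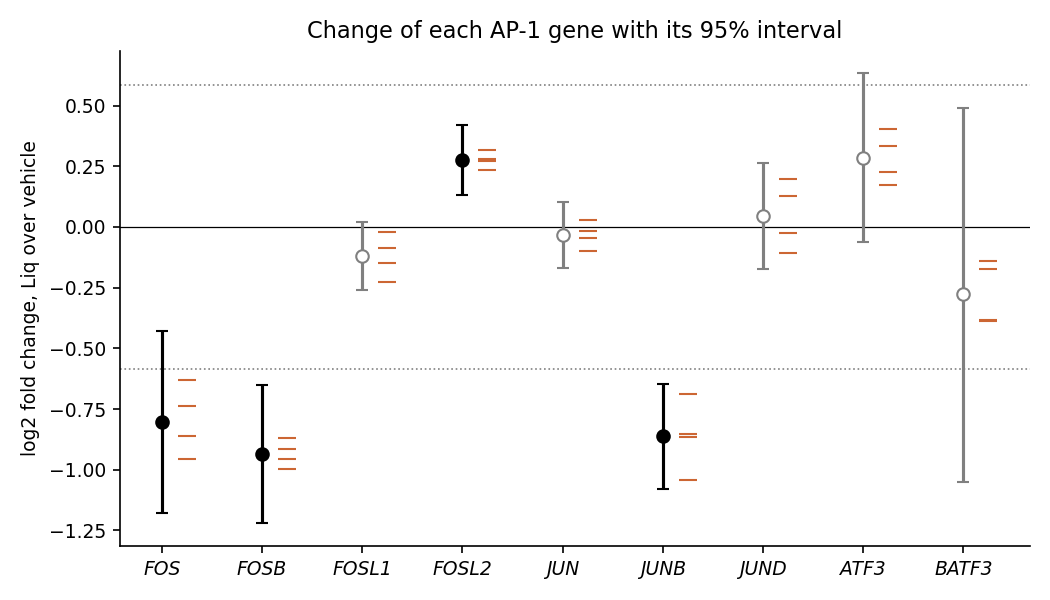
Log2 fold change of each AP-1 gene, Liq over vehicle, with its 95% interval from edgeR (filled circles have an adjusted p-value under 0.05, open circles do not), and the 4 values obtained without 1 sample each (orange dashes). Dotted lines mark a 1.5-fold change, which FOS, FOSB and JUNB pass, while FOSL2 lies at 0.28 and the other genes have intervals that include 0.

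**Figure D3:**
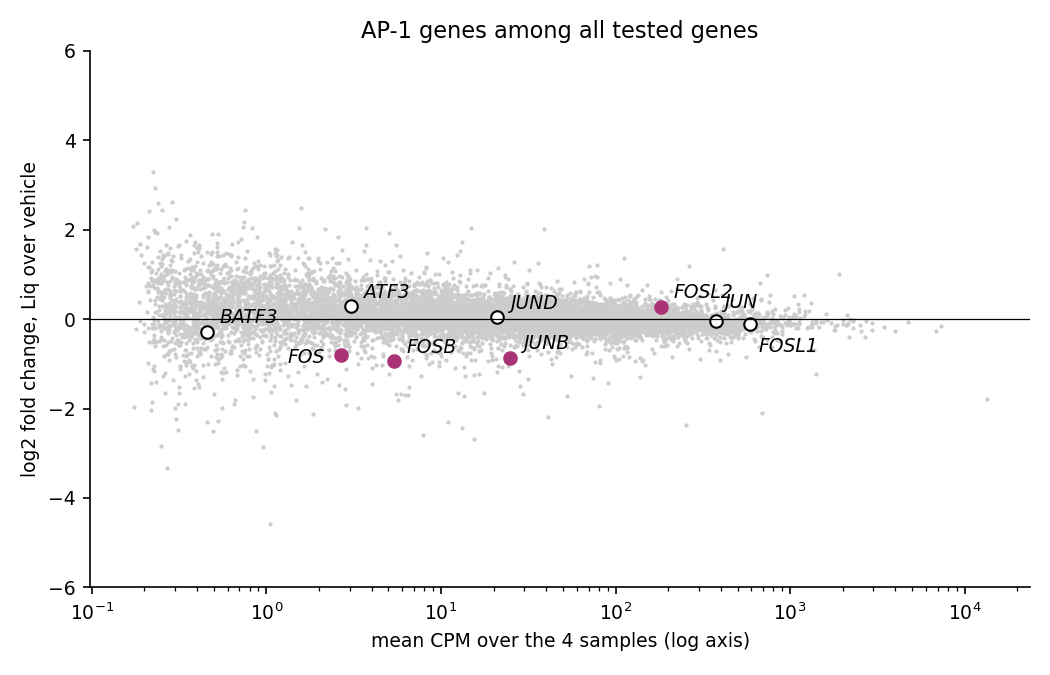
Log2 fold change, Liq over vehicle, against the mean CPM of the 4 samples (log axis) for the 13546 tested genes (grey), with AP-1 genes at an adjusted p-value under 0.05 filled in purple and the other AP-1 genes as open circles. FOS, FOSB and JUNB lie low in the cloud, with 1.59%, 1.12% and 1.34% of tested genes below them, while JUN and FOSL1 lie near 0 at high expression.

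Since FOS and JUN proteins work as dimers, the makeup of each family was also compared within samples, where the scaling between libraries plays no part. JUNB made up 13.1% and 13.3% of the summed JUN family level per kilobase in vehicle and 8.38% and 7.34% in Liq. JUN made up 78.5% and 78.9% in vehicle and 82.2% and 84.1% in Liq, while JUND was at 7.74% to 9.47% in all samples. There were 8.41 and 8.53 JUNB reads per 100 JUN reads in vehicle and 5.15 and 4.41 in Liq. The ratio of JUNB to JUN did not overlap between the groups, and the Liq mean was at 0.564 of its vehicle mean (exact permutation test, two-sided p = 0.3333, the smallest possible).

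In the FOS family, FOSL1 made up 92.9% and 92.5% of the summed level per kilobase in vehicle and 91.4% and 90.7% in Liq. FOSL2 rose from 26.4 and 27.7 to 34.1 and 37.2 reads per 100 FOSL1 reads. Both Liq samples lay above both vehicle samples in this ratio. FOS and FOSB together were under 1% of the family in every sample, with FOS at 0.52 and 0.593 and then 0.363 and 0.335 reads per 100 FOSL1 reads. There were 207 and 207 FOSB reads per 100 FOS reads in vehicle and 165 and 212 in Liq, so the ratio of these 2 genes overlapped between the groups.

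The summed level of all 9 members was 492.6 and 475.1 CPM per kilobase in vehicle and 481.4 and 423.1 in Liq. These groups overlapped, and the ratio of the means was 0.935 (exact permutation test, two-sided p = 0.6667). In that sum JUNB, FOSB and FOS held 3.57%, 0.246% and 0.208% in vehicle replicate 1, while FOSL1 and JUN held 67.4% and 21.5%. The summed JUN family level was 134.6 and 131.0 CPM per kilobase in vehicle and 129.8 and 116.1 in Liq.

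**Figure D4:**
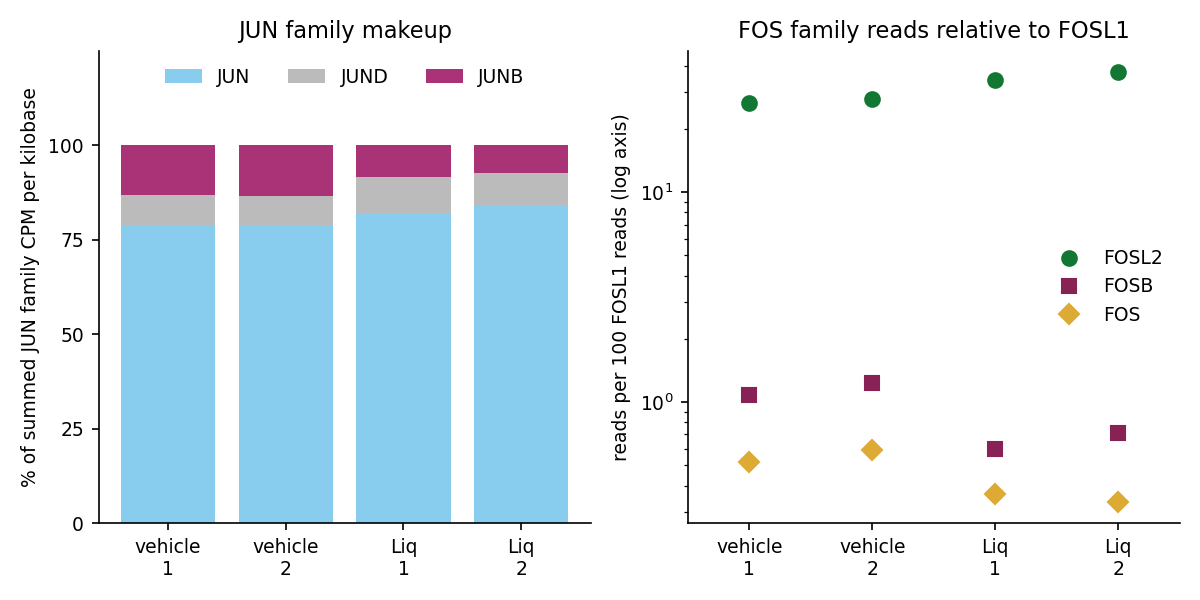
Makeup of the JUN and FOS families within each of the 4 samples. Left, the share of JUN, JUND and JUNB in the summed JUN family level per kilobase (stacked bars), where JUNB takes 13.1% and 13.3% in vehicle and 8.38% and 7.34% in Liq. Right, reads of FOSL2, FOSB and FOS per 100 FOSL1 reads (log axis), where the Liq points of FOSL2 lie above, and those of FOS and FOSB below, all vehicle points.

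Of 14 other bZIP factors that pair with FOS or JUN proteins or share their sites, 10 were tested. Of these, 2 were called lower and 0 higher by edgeR, beside 2.16% and 4.29% of all tested genes. A negative log2 fold change was found for 9 of the 10, beside 6636 of the 13546 tested genes. The median of the 10 was -0.32, beside 0.006 over all tested genes. DESeq2 called 1 lower and 0 higher. Without a fold threshold, at an unadjusted p-value under 0.05, edgeR gave 0 higher and 5 lower, beside 18.8% and 17.3% of all tested genes. DESeq2 gave 0 higher and 4 lower at that unadjusted threshold. MAFF, a small MAF protein without an activation domain, had 4157 and 3700 reads in vehicle and 1888 and 2524 in Liq, a log2 fold change of -0.95 (SE 0.078, edgeR adjusted p = 7.895e-10). BATF, a partner of JUN proteins in lymphocytes, had 71 and 42 reads in vehicle and 29 in each Liq sample (log2 fold change -1.07, edgeR adjusted p = 0.007479). The BATF call was lost without vehicle replicate 1, without Liq replicate 2 and with DESeq2, which left 1 call in the list.

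Of 29 MAP kinases, their activating kinases and transcription factors that act on FOS and JUN genes, 28 were tested. By the same rule edgeR called 0 higher and 0 lower, beside 4.29% and 2.16% of all tested genes. DESeq2 also called 0 higher and 0 lower. At an unadjusted p-value under 0.05 without a fold threshold, edgeR gave 2 higher and 9 lower of the 28, beside 18.8% and 17.3% of all tested genes. The median log2 fold change was -0.06. At the adjusted p-value without a fold threshold 6 were lower, beside 11.3% of all tested genes, namely MAP2K1, MAP2K3, MAP2K7, ELK1, ELK3 and MEF2A, with log2 fold changes of -0.30 to -0.23. ELK1, which activates FOS transcription together with SRF, had 3288 and 2868 reads in vehicle and 2317 and 3101 in Liq (log2 fold change -0.30, SE 0.078, edgeR adjusted p = 0.005566). SRF itself had a log2 fold change of -0.20 (edgeR adjusted p = 0.07622). Without Liq replicate 1, MAP2K6 was called higher.

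Of 23 other early response genes, 22 were tested, and 6 were called lower and 1 higher, beside 2.16% and 4.29% of all tested genes. The median log2 fold change was -0.31, beside 0.006 over all tested genes. CTGF, a matricellular growth factor gene, had 80350 and 73583 reads in vehicle and 29969 and 42347 in Liq, a log2 fold change of -1.22 (SE 0.057, edgeR adjusted p = 1.169e-14). The serum-induced kinase gene SGK1 had a log2 fold change of -1.03, IER3 of -0.91 and CSRNP1 of -1.24. PLK2, a Polo-like kinase gene, rose from 157.4 ± 1.3 to 294.4 ± 6.0 CPM (SD, n = 2). CYR61, which is closely related to CTGF, had a log2 fold change of 0.12 (SE 0.056, edgeR adjusted p = 0.1382), and MYC one of 0.18 (edgeR adjusted p = 0.06828). The list thus held members with log2 fold changes of either sign, as the AP-1 family did. IER2 and NR4A3, also called lower, both lost the call without vehicle replicate 1 and without Liq replicate 2. NR4A3 lost it without vehicle replicate 2 and with DESeq2 as well. IER2 lost it with upper-quartile scaling and with loess offsets too, and loess offsets added a lower call for KLF4.

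Of 33 genes known from textbooks for AP-1 sites in their control regions, 25 were tested. Of these, 9 were called lower and 1 higher, beside 2.16% and 4.29% of all tested genes. The median log2 fold change was -0.25, beside 0.006 over all tested genes. The list was written with earlier results of these samples known, and several of its genes, IL1B and IL8 among them, are also targets of NF-κB. MMP1, the interstitial collagenase, had 851846 and 783176 reads in vehicle and 212522 and 306456 in Liq. IL1B and SERPINB2 had log2 fold changes of -2.38 and -2.10, and IL11 one of -1.49. HMOX1, the heme oxygenase gene, rose, with 394 and 338 reads in vehicle and 680 and 1049 in Liq (log2 fold change 1.11, edgeR adjusted p = 1.23e-08). CCND1 and CD44, both abundant in these cells, had log2 fold changes of 0.03 and 0.11 that did not pass the test. Without Liq replicate 1 and with upper-quartile scaling, SPP1 was also called higher, which made 2.

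**Figure D5:**
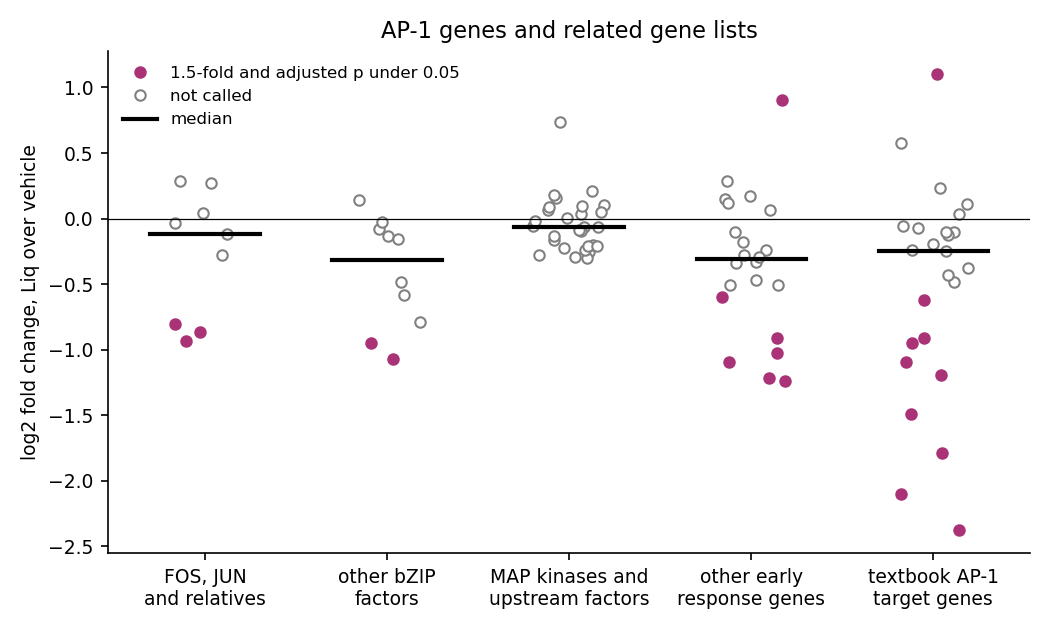
Log2 fold change, Liq over vehicle, of the 9 AP-1 genes and of the tested genes of 4 related lists. Each point is 1 gene, purple where it met the rule for a call, and black bars are medians, which lie at -0.12, -0.32, -0.06, -0.31 and -0.25 from left to right.

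JUNB had the smallest p-value of the family, and the genes with the most similar course over the 4 samples were sought among 13537 other tested genes by the root mean square difference of centred log2 CPM. They were SH3TC1 (0.039), KRTAP4-9 (0.045) and HIST2H2BE (0.058). SH3TC1 had 213 and 183 reads in vehicle and 115 and 127 in Liq, a log2 fold change of -0.82 (SE 0.16, edgeR adjusted p = 0.0004456). KRTAP4-9 and HIST2H2BE belong to families of near-identical genes and are uncertain. With 4 samples and 13537 genes to choose from, close matches to a called gene are bound to be found. The differences were below the SEs of the 3 log2 fold changes (0.16 to 0.258), so which genes came closest is uncertain. Shared regulation with JUNB was not tested.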

How the data were processed

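Total RNA from ES2 cells was sequenced from TruSeq libraries as single-end reads. Per the labels, the authors aligned reads to hg19 (GRCh37) with TopHat2 2.0.8b after bcl2fastq 2.17.1.14 and counted them per gene with HTSeq, whose version and strand setting are not given in the sources used here. The deposited values are raw read counts per gene symbol, without normalization, filter or pooling. HTSeq leaves out reads that map to several places (35.63% to 36.23% of reads) or overlap no gene or several genes (8.311% to 9.708%), so genes with close copies are undercounted. These tallies, the last 5 lines of each table, stayed out of the tests.

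The tests were run with edgeR 4.0.16 under R 4.3.3: filterByExpr (minimum count 10, minimum total 15), TMM scaling, glmQLFit and glmQLFTest on all 4 samples without a block, and Benjamini-Hochberg adjustment over 13546 genes. CPM values are TMM-scaled. The SE is the log2 fold change divided by the square root of F, and intervals are 95% intervals from the t quantile of the fit. Exon lengths and positions are from GENCODE v44lift37, which matched 81.4% of symbols and all members. The authors' gene models may differ. Promoter windows are from the RefSeq table for GRCh38.p14 and were placed on GRCh37 by exact match. Of the tested genes, 77.5% had a window. The share of changed genes with a motif was not examined, although it had been planned for AP-1 sites.

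The members and lists were chosen with earlier results of these data known. The text names all members, up to 4 called genes per list and direction with the smallest p-values, and the 3 genes most like JUNB. Other genes, such as HOOK2, SRF, ELK1, MAP2K6, CYR61, MYC, CCND1, CD44, SPP1, IER2 and NR4A3, were named after their values had been seen. Alternatives were other scalings (RLE, upper quartile, loess offsets), filters, DESeq2 1.42.0, the replicate number as a block, leaving out each sample, other thresholds and other lengths. The fits were tested on simulated counts before use. The intervals and the floor of 3 reads cover counting error or the spread of these samples only.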

Additional observations from a re-analysis of the deposited data

How the results depend on the processing

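FOS, FOSB and JUNB were called lower under every alternative scaling, filter and test, without each sample and at the unadjusted p-value. The exception was a 2-fold threshold, at which 0 members were called lower, while without a fold threshold 1 member, FOSL2, was called higher. The log2 fold change ranged over the alternatives from -0.98 to -0.63 for FOS, -1.07 to -0.87 for FOSB, -1.04 to -0.69 for JUNB and 0.23 to 0.35 for FOSL2.

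The labels number the replicates, but nothing says that equal numbers share a culture, and the deviations of same-numbered samples had a correlation of 0.0483. With the replicate number as a block, FOSL1 passed the adjusted threshold at a log2 fold change of -0.12 (adjusted p = 0.03679 by edgeR). At that size FOSL1 stayed under the 1.5-fold threshold, and with the block 3 members were called lower and 0 higher, as without it.

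Over all genes, 581 were called higher and 293 lower. Higher calls numbered 349 with loess offsets, 339 with DESeq2, 209 at a 2-fold threshold and 1712 without a fold threshold, and lower calls 119 and 1533 at these last 2 settings. Of all calls, 66.5% were higher with TMM and 46.8% with loess offsets (349 higher and 397 lower). Leaving out 1 sample gave 449 to 685 higher and 245 to 314 lower calls.

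Lower calls among other bZIP factors moved from 2 to 1 with DESeq2 and at a 2-fold threshold, and to 4 without a fold threshold, with BATF2 added under RLE, loess offsets and no filter, and with 1 to 2 when 1 sample was left out. Among MAP kinases and upstream factors, lower calls moved from 0 to 6 without a fold threshold, and higher calls from 0 to 1 at the unadjusted p-value and to 0 to 1 when 1 sample was left out. Among early response genes, higher calls moved from 1 to 0 at a 2-fold threshold and to 2 without a fold threshold. Their lower calls moved from 6 to 12 without a fold threshold, to 4 at a 2-fold threshold and to 5 with upper-quartile scaling or DESeq2. Among AP-1 targets, higher calls moved from 1 to 2 with upper-quartile scaling and to 3 without a fold threshold. Their lower calls moved from 9 to 14 without a fold threshold and to 6 at a 2-fold threshold. Without the filter on low counts, the median log2 fold change was -0.13 for other bZIP factors and -0.46 for AP-1 targets, because genes with few reads then entered the lists. The FOS family sum had a log2 difference of -0.09, with a range of -0.19 to 0.002 over the 6 alternatives run. The share of FOSL1 ranged from 92.53% to 92.92% in vehicle and from 90.71% to 91.41% in Liq. In any data, leaving out 1 of 2 samples moves a group mean by less than the SD of that group. A share within a sample does not depend on the scaling of libraries. These ranges are therefore no test of stability. Depth limits BATF3, ATF3 and FOS, with 16 to 175 reads per sample.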
